A study of Mus musculus with 12 samples.

Results

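The genes described here are 9 integrin alpha subunits that do not bind the RGD (Arg-Gly-Asp) motif, namely Itga1, Itga2, Itga3, Itga4, Itga6, Itga7, Itga9, Itga10 and Itga11, out of 49585 genes counted in the series. They were taken by name from a list, and no measured value was used to choose them. Their expression was measured by RNA sequencing in 4 populations sorted by flow cytometry from the bone marrow and bone of wild-type C57BL/6 male mice at 8 to 10 weeks of age in the steady state, with 3 libraries of 2000 cells per population. All populations were CD45-, Ter119- and CD31-. Itga8+ MSCs were Itga8+Alcam+Sca-1- cells, and Itga8-Alcam+ BLCs (bone-lining cells, called osteoblasts in the sample labels) were Itga8-Alcam+Sca-1- cells. Sca-1+ MSCs were Alcam-Sca-1+ cells, and CD51+CD140a+ MSCs were sorted on integrin alpha v and the PDGF receptor alpha. The first 3 populations were released with collagenase from fragments of flushed bone and the fourth from flushed marrow digested with Accumax, so that the source and digestion of the cells cannot be told apart from the population in comparisons with CD51+CD140a+ MSCs. No transgene, deletion or treatment was used in these mice, and the sources do not state whether the 3 replicates came from separate animals, so p-values measure the spread between these libraries, which may be technical.

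An integrin is a pair of an alpha and a beta subunit in the cell membrane that ties the extracellular matrix or a neighbouring cell to the actin cytoskeleton, and the alpha subunit sets much of the choice of ligand. Itga1, Itga2, Itga10 and Itga11 encode the collagen receptors, which pair with beta1. Itga3, Itga6 and Itga7 encode laminin receptors, which pair with beta1, and Itga6 also with beta4. Itga4 and Itga9 form a subfamily of their own that binds VCAM-1, tenascin-C, osteopontin and fibronectin outside the RGD motif, and Itga4 pairs with beta1 or with beta7. In bone marrow, alpha4 on haematopoietic cells is known for holding them to VCAM-1 on stromal cells, and the collagen and laminin receptors of stromal and bone-lining cells for anchoring them to matrix.

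The 4 collagen receptors are close relatives whose levels followed different patterns, so the sequences before their transcription starts are shown first. All 4 stretches are RefSeq sequence (GRCm38.p6), printed 5′ to 3′ on the strand of the gene, with CpG dinucleotides in capitals. Itga1 (chr13:115101965-115102214, minus strand), Itga2 (chr13:114932101-114932350, minus strand) and Itga10 (chr3:96645334-96645583, plus strand) are shown over the 250 bases before the start. Itga11 (chr9:62677605-62677825, plus strand) is shown over 221 bases, because GENCODE places its start inside the RefSeq window.
Itga1: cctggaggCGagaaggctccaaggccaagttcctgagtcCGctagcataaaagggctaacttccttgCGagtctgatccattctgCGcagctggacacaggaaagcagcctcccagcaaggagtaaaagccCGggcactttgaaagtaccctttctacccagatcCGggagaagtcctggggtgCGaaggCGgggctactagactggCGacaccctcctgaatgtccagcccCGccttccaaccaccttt
Itga2: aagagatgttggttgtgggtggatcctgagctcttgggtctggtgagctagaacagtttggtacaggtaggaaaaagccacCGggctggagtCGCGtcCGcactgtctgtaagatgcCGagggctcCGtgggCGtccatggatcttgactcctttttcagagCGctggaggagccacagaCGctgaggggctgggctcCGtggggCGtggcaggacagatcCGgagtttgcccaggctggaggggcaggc
Itga10: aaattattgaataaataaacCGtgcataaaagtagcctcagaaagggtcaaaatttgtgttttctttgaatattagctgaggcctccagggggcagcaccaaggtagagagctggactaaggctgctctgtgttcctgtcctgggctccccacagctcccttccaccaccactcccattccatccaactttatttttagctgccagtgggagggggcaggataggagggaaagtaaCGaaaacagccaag
Itga11: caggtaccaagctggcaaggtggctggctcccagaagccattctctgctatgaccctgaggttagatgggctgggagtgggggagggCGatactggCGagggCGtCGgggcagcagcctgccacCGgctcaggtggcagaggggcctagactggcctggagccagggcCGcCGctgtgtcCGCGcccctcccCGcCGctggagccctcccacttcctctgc

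The stretches differed in CpG content. Over the whole 250-base windows there were 10 CpG dinucleotides for Itga1, 12 for Itga2, 2 for Itga10 and 12 for Itga11, against a median of 6 over 32851 RefSeq promoter windows of mouse genes. GC content was 57.6%, 60.8%, 48% and 68.4% in the same order, against a median of 52.4%. Searched on both strands, the GC box GGGCGG, the TATA box TATAAA, the RUNX letters TGTGGT and the AP-1 letters TGANTCA were not found in these 4 windows, and the E-box CAGCTG was found once, in that of Itga1. GGGCGG is present in 32.7% of all windows, TATAAA in 12.4%, TGTGGT in 14%, CAGCTG in 13% and TGANTCA in 6.75%. Itga1 and Itga2 are neighbours on chromosome 13 (chr13:114953096-115101964 and chr13:114833081-114932100 in GENCODE M21 on GRCm38, both on the minus strand), with 20995 bases between them. The others lie at chr3:96645584-96664519 (Itga10, plus strand), chr9:62677826-62783982 (Itga11, plus), chr11:95044474-95076801 (Itga3, minus), chr2:71745616-71858416 (Itga6, plus), chr10:128933818-128958282 (Itga7, plus), chr2:79255426-79333123 (Itga4, plus) and chr9:118606690-118901003 (Itga9, plus), and the counts cover the exons of each gene. The levels of Itga1 and Itga2 did not run together over the 12 libraries, with Pearson's r of -0.366 as a description.

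The libraries held 17580677 to 31332475 counted reads each. Levels are given as CPM, which are counts scaled to a library total of 1000000, after TMM scaling, a correction for library composition. A count of 3, taken as the floor of detection, corresponded to 0.0819 to 0.18 CPM, which covers counting error only. Replicates were tight in CD51+CD140a+ MSCs and Sca-1+ MSCs, with Pearson's r of log2 CPM across genes of 0.976 to 0.985 and 0.979 to 0.986. Those of Itga8+ MSCs (0.861 to 0.961) and Itga8-Alcam+ BLCs (0.922 to 0.959) were wider apart. In both of the latter populations 1 library was poor in long transcripts. The 4098 genes with at least 5000 bases of exon were compared with the 1112 genes under 2000 bases, each as the median log2 deviation from its mean over 12 libraries. The difference of long minus short was -2.24 in Itga8+ replicate 2 and -1.52 in Itga8-Alcam+ replicate 3, against -0.54 to 0.87 in the other 10 libraries. The 9 subunits have 5131 to 18599 bases of exon and so belong to the long genes. Among the cell markers, 7 osteoblast genes summed to 32100 to 114000 CPM in Itga8-Alcam+ BLCs, 686 to 7970 CPM in Itga8+ MSCs, 15600 to 19500 CPM in Sca-1+ MSCs and 8160 to 17400 CPM in CD51+CD140a+ MSCs. Most of the sum was Col1a1 in Sca-1+ MSCs (15100 to 18900 CPM) and Ibsp in CD51+CD140a+ MSCs (6820 to 16000 CPM), and Bglap, which encodes osteocalcin, was at 1180 to 6980 CPM in Itga8-Alcam+ BLCs and at most 15 CPM elsewhere. Erythroid markers set Itga8+ replicate 2 apart, with a summed level over 5 genes of 1140 CPM against 95.2 and 129 CPM in the other Itga8+ libraries and at most 319 CPM in the other 9, and none at the floor. The 5 osteoclast markers summed to 641 CPM in that library and 843 CPM in Itga8-Alcam+ replicate 3, the 2 libraries poor in long transcripts, and to 149 to 333 CPM in the other 10, with Calcr at the floor in every population and Ocstamp in Itga8+ and CD51+CD140a+ MSCs. The 6 smooth muscle and pericyte markers summed to 129 to 351 CPM in Itga8+ MSCs and 24.5 to 79.3 CPM elsewhere, with Cnn1 at the floor in CD51+CD140a+ MSCs. The part of these lists in the levels of the subunits was not tested. For the 9 subunits, results without the 2 libraries poor in long transcripts are given wherever they changed a call. Calls of partner, ligand, adaptor and other listed genes were not tried without these libraries or under other alternatives.

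**Figure D1:**
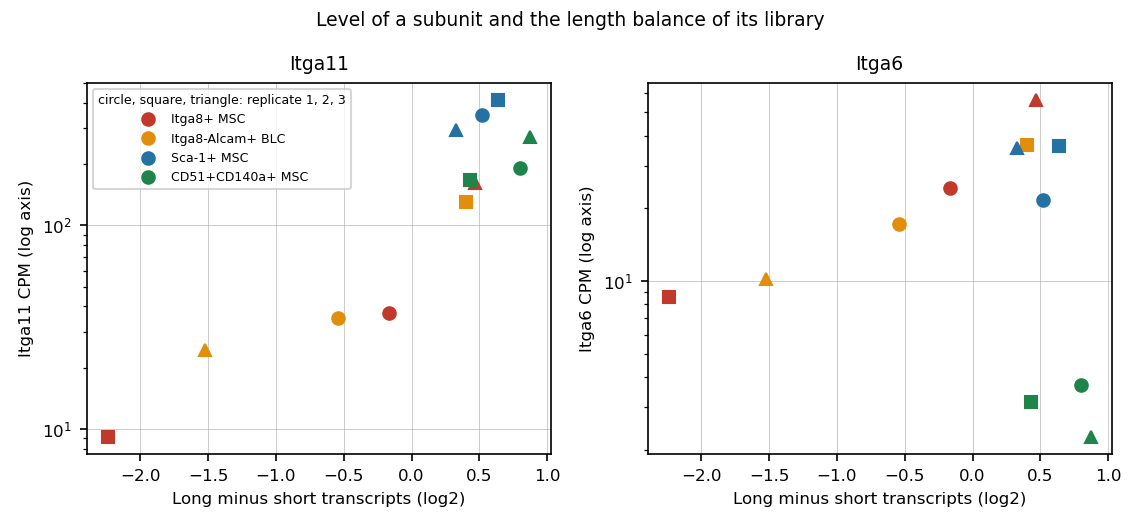
Level of Itga11 (left) and Itga6 (right) in CPM on a log axis against the difference between long and short transcripts of the same library (log2), 1 point per library, with colour for the population and shape for the replicate. Itga8+ replicate 2, at -2.24, had the lowest Itga11 of all libraries (9.09 CPM) and the lowest Itga6 outside CD51+CD140a+ MSCs (8.57 CPM).

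Each pair of populations was compared with edgeR's quasi-likelihood test, and a gene was called at a false discovery rate (FDR) under 0.1 over all 18648 genes tested together with a fold change above 2. All 9 subunits passed the filter on low counts. The standard error of the log2 fold changes ran from 0.452 (Itga10) to 1.15 (Itga7) over the subunits. The 6 comparisons share libraries, so that they are not independent of each other. Fewer expressing cells and less RNA per cell cannot be told apart in these pools. Between Itga8+ MSCs and Itga8-Alcam+ BLCs 1 of 9 subunits was called, where 3.82% of all genes were called. Between Itga8+ MSCs and Sca-1+ MSCs 4 of 9 were called, against 21.7% of all genes, and between Itga8+ MSCs and CD51+CD140a+ MSCs 6 of 9, against 35.6%. Against Itga8-Alcam+ BLCs, 5 of 9 were called with Sca-1+ MSCs, where 26.4% of all genes were, and 5 of 9 with CD51+CD140a+ MSCs, where 35.3% were. When CD51+CD140a+ MSCs were compared with Sca-1+ MSCs, 5 of 9 were called, against 20.5%.

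The subunit called between the Alcam+ populations was higher in Itga8-Alcam+ BLCs, where 2.16% of all genes were called in that direction and 1.66% in the other. All 4 subunits called between Itga8+ MSCs and Sca-1+ MSCs were higher in Sca-1+ MSCs (8.89% of all genes, and 12.9% the other way). Against CD51+CD140a+ MSCs the directions were mixed. Itga8+ MSCs had 2 subunits higher (21.2% of all genes) and 4 lower (14.3%), Itga8-Alcam+ BLCs 2 higher (20.4%) and 3 lower (14.9%), and Sca-1+ MSCs 3 higher (11.2%) and 2 lower (9.3%). Itga8-Alcam+ BLCs had 1 higher (14.5%) and 4 lower (11.9%) than Sca-1+ MSCs. The libraries of Itga8+ MSCs did not overlap with those of Itga8-Alcam+ BLCs for 1 subunit (14.2% of all genes), with those of Sca-1+ MSCs for 4 (37.6%) and with those of CD51+CD140a+ MSCs for 6 (44.4%). Itga8-Alcam+ BLCs were apart from Sca-1+ MSCs for 5 subunits (45.7%) and from CD51+CD140a+ MSCs for 7 (49.8%), and Sca-1+ MSCs from CD51+CD140a+ MSCs for 8 (45.9%). The median log2 fold change over the 9 subunits was 0.13 for Itga8+ MSCs minus Itga8-Alcam+ BLCs (all genes 0.08), -0.29 for Itga8+ minus Sca-1+ MSCs (0.16) and -1.6 for Itga8+ minus CD51+CD140a+ MSCs (0.18). For Itga8-Alcam+ BLCs minus Sca-1+ MSCs the median over the subunits was -0.55 (all genes 0.12), for Itga8-Alcam+ BLCs minus CD51+CD140a+ MSCs it was -1.08 (0.09), and for Sca-1+ MSCs minus CD51+CD140a+ MSCs it was 0.74 (0).

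**Figure D2:**
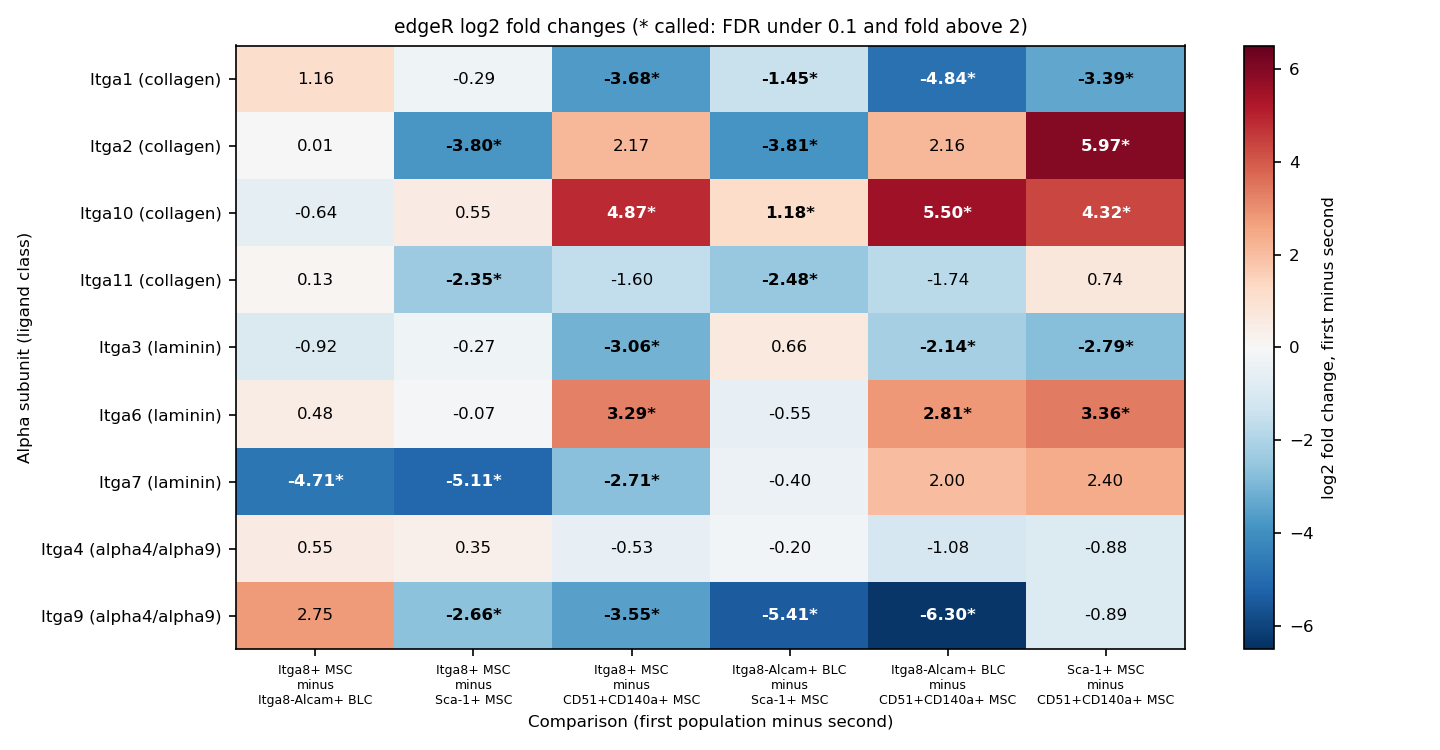
Heat map of edgeR log2 fold changes of the 9 subunits (rows, grouped by ligand class) in the 6 comparisons (columns, first population minus second), with called values in bold and marked with an asterisk. Itga4 has no called value, and the values of Itga1, Itga3, Itga6 and Itga10 against CD51+CD140a+ MSCs are called in all 3 comparisons.

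Among the collagen receptors, Itga1 was highest in CD51+CD140a+ MSCs. Itga1 encodes alpha1, which prefers basement membrane collagen IV. Its levels were 288, 257 and 292 CPM in the 3 libraries of CD51+CD140a+ MSCs, 24.3, 30.7 and 24.7 CPM in Sca-1+ MSCs, 24.4, 9.19 and 31.5 CPM in Itga8+ MSCs and 8.51, 15.7 and 4.91 CPM in Itga8-Alcam+ BLCs. The lowest library of CD51+CD140a+ MSCs was above the highest of the other 9. Itga1 was 12.9-fold higher in CD51+CD140a+ MSCs than in Itga8+ MSCs (FDR = 0.000225), 28.7-fold higher than in Itga8-Alcam+ BLCs (FDR = 4.76e-05) and 10.5-fold higher than in Sca-1+ MSCs (FDR = 0.000437). With the length trend removed the first 2 log2 fold changes were -2.89 in place of -3.68 and -4.02 in place of -4.84. Sca-1+ MSCs exceeded Itga8-Alcam+ BLCs 2.73-fold (FDR = 0.0442), a call that was lost after removal of the trend with transcript length (log2 fold change -0.62, FDR = 0.166), and also without Itga8-Alcam+ replicate 1 (-1.41, FDR = 0.125) or 3 (-1.13, FDR = 0.141) or Sca-1+ replicate 2 (-1.33, FDR = 0.122). Itga8+ MSCs overlapped with both other bone-derived populations and differed from neither at these thresholds, and they were above Itga8-Alcam+ BLCs without Itga8+ replicate 2 (log2 fold change 1.54, FDR = 0.0547), without both libraries poor in long transcripts (1.23, FDR = 0.0568) and with the length trend removed (1.13, FDR = 0.0814).

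Itga2 was highest in Sca-1+ MSCs. It encodes alpha2, which prefers fibrillar collagen I and is best known as a collagen receptor of platelets. Its levels were 17.6, 28.7 and 14.8 CPM in Sca-1+ MSCs, 0.445, 1.87 and 2.08 CPM in Itga8+ MSCs and 0.946, 1.95 and 1.44 CPM in Itga8-Alcam+ BLCs. CD51+CD140a+ MSCs had 4, 0 and 27 counts, or 0.109, 0 and 0.87 CPM. No library of Sca-1+ MSCs overlapped with another population. The excess of Sca-1+ MSCs was 13.9-fold over Itga8+ MSCs (FDR = 0.0213), 14.1-fold over Itga8-Alcam+ BLCs (FDR = 0.0162) and 62.7-fold over CD51+CD140a+ MSCs (log2 fold change 5.97, FDR = 0.00203). The last value rests on CD51+CD140a+ replicates 2 and 3, as it was 5.38 without the former and 8.38 without the latter. The lower 3 populations were not separated by a call, although without CD51+CD140a+ replicate 3 both Itga8+ MSCs (log2 fold change 4.58, FDR = 0.00839) and Itga8-Alcam+ BLCs (4.57, FDR = 0.00806) were above CD51+CD140a+ MSCs. Both were also called with the length trend removed (2.54, FDR = 0.0676, and 2.49, FDR = 0.0692), with DESeq2 (2.22, FDR = 0.0509, and 2.18, FDR = 0.0564) and with no filter beyond 1 count (2.15, FDR = 0.0952, and 2.13, FDR = 0.0978). The summed level of 6 megakaryocyte and platelet markers was 21.6 to 28.4 CPM in Sca-1+ MSCs and 15.8 to 42.1 CPM in the other libraries, and none of the 6 was at the floor in any population. Adventitial fibroblast markers moved with Itga2, with summed levels over 5 genes, the sort gene Ly6a among them, of 2110 to 2590 CPM in Sca-1+ MSCs against 8.6 to 107 CPM elsewhere, and with Clec3b at the floor in CD51+CD140a+ MSCs. The summed level of 6 endothelial markers was 73.5 to 111 CPM in Sca-1+ MSCs against 10.3 to 25.7 CPM elsewhere, with none at the floor, and Tek alone gave 93.3, 60.3 and 56.2 CPM of it, while Pecam1 had means of 5.51 CPM in Sca-1+ MSCs and 3.99 to 6.4 CPM elsewhere. The part of either list in the result was not tested.

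Itga10 had the reverse pattern to Itga1. It encodes alpha10, a receptor for collagen II that is typical of cartilage. Its levels were 17, 22.7 and 13.2 CPM in Itga8-Alcam+ BLCs, 12.8, 6.65 and 14.6 CPM in Itga8+ MSCs, 7.08, 10.7 and 5.53 CPM in Sca-1+ MSCs and 0.655, 0.229 and 0.258 CPM in CD51+CD140a+ MSCs. All 9 bone-derived libraries were above all 3 from marrow. CD51+CD140a+ MSCs were 29.2-fold lower than Itga8+ MSCs (FDR = 5.57e-05), 45.4-fold lower than Itga8-Alcam+ BLCs (FDR = 2.81e-05) and 20-fold lower than Sca-1+ MSCs (FDR = 0.000123). Without CD51+CD140a+ replicate 1 the 3 log2 fold changes rose from 4.87, 5.5 and 4.32 to 5.51, 6.15 and 4.96. Itga8-Alcam+ BLCs exceeded Sca-1+ MSCs 2.27-fold (FDR = 0.0856), a call that was lost in 9 of the settings tried, among them library totals alone (log2 fold change 0.97, FDR = 0.163). It was also lost without Sca-1+ replicate 3 (0.99, FDR = 0.241), Sca-1+ replicate 1 (1.12, FDR = 0.205), Itga8-Alcam+ replicate 2 (0.92, FDR = 0.203), Itga8-Alcam+ replicate 1 (1.17, FDR = 0.167) and Itga8+ replicate 1 (1.18, FDR = 0.102). Cartilage markers had summed levels over 6 genes of 23000 to 121000 CPM in Itga8+ MSCs and 14400 to 75800 CPM in Itga8-Alcam+ BLCs, against 1370 to 1720 CPM in Sca-1+ MSCs and 583 to 1360 CPM in CD51+CD140a+ MSCs, with none at the floor. Their part in the levels of Itga10 was not tested. In the annotation 33.5% of the exon bases of Itga10 are shared with Gm42957 on the same strand, which had 16 counts over all libraries, and reads there cannot be assigned to either.

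Itga11 was lower in both Alcam+ populations than in Sca-1+ MSCs. It encodes alpha11, a receptor for fibrillar collagen on mesenchymal cells. Its levels were 348, 414 and 294 CPM in Sca-1+ MSCs and 191, 168 and 272 CPM in CD51+CD140a+ MSCs. They were 36.9, 9.09 and 162 CPM in Itga8+ MSCs and 34.9, 130 and 24.5 CPM in Itga8-Alcam+ BLCs, so that both Alcam+ populations were spread widely and lay below the other 6 libraries. Sca-1+ MSCs were 5.09-fold above Itga8+ MSCs (FDR = 0.0828) and 5.57-fold above Itga8-Alcam+ BLCs (FDR = 0.0591). The first of these calls was lost in 11 of the settings tried, the replicates left out being Itga8+ 1 and 2, all of Sca-1+ and all of CD51+CD140a+ (FDR = 0.101 to 0.193), while without Itga8+ replicate 3 the log2 fold change was -3.96 (FDR = 0.00743). The second was lost without Itga8-Alcam+ replicate 1 or 3 or any Sca-1+ replicate (FDR = 0.101 to 0.172), and was -3.61 in place of -2.48 without Itga8-Alcam+ replicate 2 (FDR = 0.0212). CD51+CD140a+ MSCs were 3.04-fold above Itga8+ MSCs (FDR = 0.161) and 3.33-fold above Itga8-Alcam+ BLCs (FDR = 0.136), which were not called. Without Itga8+ replicate 3 the former was called (log2 fold change -3.18, FDR = 0.0104), and without Itga8-Alcam+ replicate 2 the latter (-2.83, FDR = 0.0359). The latter was called in 6 of the settings, which included DESeq2 (-1.73, FDR = 0.0782), library totals alone (-2.15, FDR = 0.0554), a fit of only the compared libraries (-1.75, FDR = 0.0519) and the omission of Itga8+ replicate 2 (FDR = 0.0462) or 3 (FDR = 0.0538).

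**Figure D3:**
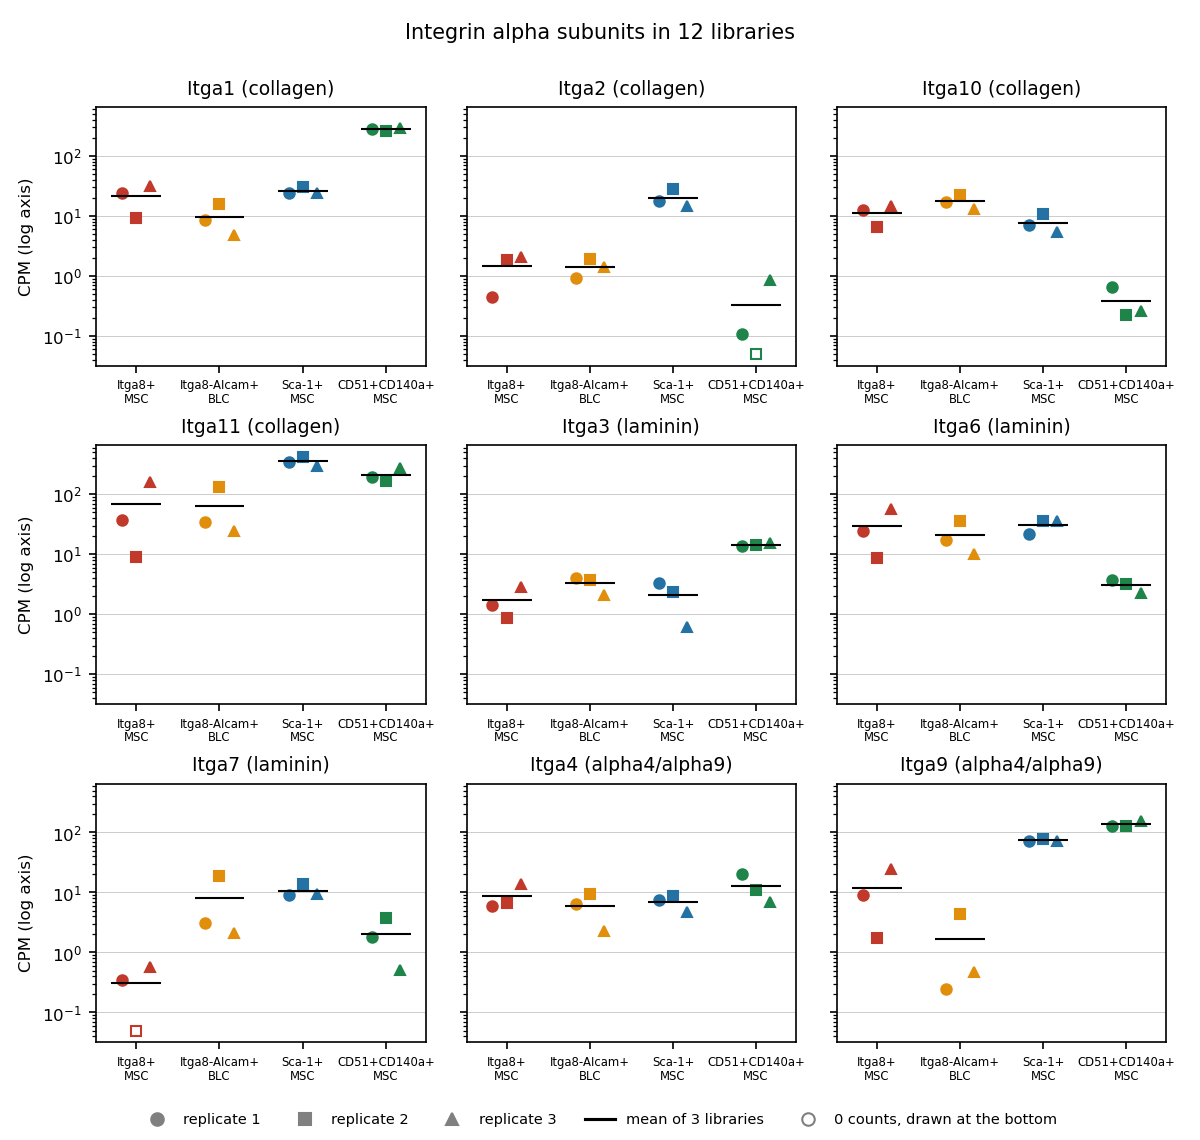
Levels of the 9 subunits in CPM on a log axis, 1 panel per gene, with 3 libraries per population (circle, square and triangle for replicates 1, 2 and 3) and a bar at their mean. CD51+CD140a+ MSCs are highest for Itga1, Itga3 and Itga9 and lowest for Itga6 and Itga10, and Itga2 stands out in Sca-1+ MSCs.

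The laminin receptors took 3 different patterns. Itga3 encodes alpha3, a receptor for laminin-332 and laminin-511 of basement membranes. It was at 13.7, 14.1 and 15.6 CPM in CD51+CD140a+ MSCs, 4.08, 3.66 and 2.1 CPM in Itga8-Alcam+ BLCs, 3.26, 2.39 and 0.609 CPM in Sca-1+ MSCs and 1.43, 0.883 and 2.89 CPM in Itga8+ MSCs. CD51+CD140a+ MSCs stood clear of the other 9 libraries, whose populations overlapped with each other. The excess was 8.33-fold over Itga8+ MSCs (FDR = 0.00294), 4.39-fold over Itga8-Alcam+ BLCs (FDR = 0.0162) and 6.93-fold over Sca-1+ MSCs (FDR = 0.00611).

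Itga6 went the other way. It encodes alpha6, a receptor for several laminins that also marks many stem and progenitor cells. It was at 3.69, 3.15 and 2.25 CPM in CD51+CD140a+ MSCs, against 21.7, 36.4 and 35.7 CPM in Sca-1+ MSCs, 24.4, 8.57 and 56.4 CPM in Itga8+ MSCs and 17.2, 36.5 and 10.2 CPM in Itga8-Alcam+ BLCs. The 3 bone-derived populations overlapped and lay above CD51+CD140a+ MSCs in every library. The difference was 9.8-fold for Itga8+ MSCs (FDR = 0.00306), 7.01-fold for Itga8-Alcam+ BLCs (FDR = 0.00661) and 10.3-fold for Sca-1+ MSCs (FDR = 0.00341). The log2 fold change of Itga8+ MSCs fell from 3.29 to 2.45 without Itga8+ replicate 3 (FDR = 0.00745), and that of Itga8-Alcam+ BLCs from 2.81 to 2.17 without Itga8-Alcam+ replicate 2 (FDR = 0.0217). Tendon fibroblast markers shared this division, with summed levels over 6 genes of 83.4 to 113 CPM in CD51+CD140a+ MSCs against 3790 to 6390 CPM in Itga8-Alcam+ BLCs, 6260 to 9350 CPM in Sca-1+ MSCs and 12900 to 23500 CPM in Itga8+ MSCs. In CD51+CD140a+ MSCs the floor was not exceeded by Scx, the tendon transcription factor, and Kera, and elsewhere all 6 exceeded it. The part of these genes in the result was not tested.

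Itga7 was the only subunit called between Itga8+ MSCs and Itga8-Alcam+ BLCs, and it was nearly undetected in the former. It encodes alpha7, the laminin receptor typical of skeletal muscle. Itga8+ MSCs had 7, 0 and 10 counts, or 0.346, 0 and 0.578 CPM. Itga8-Alcam+ BLCs had 3.14, 19 and 2.1 CPM, Sca-1+ MSCs 9.07, 13.6 and 9.51 CPM and CD51+CD140a+ MSCs 1.78, 3.78 and 0.515 CPM. Itga8+ MSCs did not overlap with Itga8-Alcam+ BLCs or Sca-1+ MSCs, and 1 library of CD51+CD140a+ MSCs fell within their range. Itga8+ MSCs were 26.2-fold lower than Itga8-Alcam+ BLCs (FDR = 0.0512), 34.6-fold lower than Sca-1+ MSCs (FDR = 0.0115) and 6.57-fold lower than CD51+CD140a+ MSCs (FDR = 0.0772).

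The first of these calls was lost without Itga8-Alcam+ replicate 2, whose 19 CPM was the highest Itga7 level of all (log2 fold change -3.07, FDR = 0.176), and without Itga8+ replicate 1 (-4.82, FDR = 0.156). It was -4.11 without Itga8+ replicate 2 (FDR = 0.082) and -5.48 without Itga8+ replicate 3 (FDR = 0.0798), in place of -4.71. It was lost with only the compared libraries fitted (-4.69, FDR = 0.206) and with the replicate number as a block (-3.98, FDR = 0.18) as well. The call against CD51+CD140a+ MSCs was lost without Itga8+ replicate 1 (-2.82, FDR = 0.141) or 2 (-2.1, FDR = 0.172) and without CD51+CD140a+ replicate 1 (-2.8, FDR = 0.118) or 2 (-1.9, FDR = 0.232). It was also lost without both libraries poor in long transcripts (-2.11, FDR = 0.122), with only the compared libraries fitted (-2.7, FDR = 0.145) and with the block (-2.17, FDR = 0.181), and was -3.48 without Itga8+ replicate 3 (FDR = 0.0608). Against Sca-1+ MSCs, Itga7 remained called in all 22 alternatives, with -5.92 without Itga8+ replicate 3 and -4.5 without both libraries poor in long transcripts, in place of -5.11. CD51+CD140a+ MSCs lay below Sca-1+ MSCs without overlap (log2 fold change of Sca-1+ minus CD51+CD140a+ MSCs 2.4, FDR = 0.122) and, with overlap, below Itga8-Alcam+ BLCs (2, FDR = 0.135). Neither was called, but the first was in 8 of the 22 alternatives and the second in 6. Without the libraries poor in long transcripts both were (2.4, FDR = 0.0365, and 2.44, FDR = 0.0346), as with DESeq2 (2.42, FDR = 0.0499, and 1.99, FDR = 0.0879) and with the length trend removed (2.4, FDR = 0.0849, and 2.21, FDR = 0.0769). The first was also called with only the compared libraries fitted (2.38, FDR = 0.0142). The summed level of 7 skeletal muscle markers was 11 to 27.6 CPM in Itga8+ MSCs, 3.6 to 14 CPM in Itga8-Alcam+ BLCs, 0.984 to 2.21 CPM in Sca-1+ MSCs and 0.129 to 0.628 CPM in CD51+CD140a+ MSCs, with 4, 1, 4 and 5 of the genes at the floor and Pax7 at it in every population. Most of the sum in Itga8+ MSCs was Acta1, at 7.32, 17.4 and 22.8 CPM. Myod1, the myogenic factor, had 3, 89 and 18 counts in Itga8-Alcam+ BLCs and 0, 0 and 1 in Itga8+ MSCs, and Myf5 and Myh4 were counted only in Itga8-Alcam+ replicate 2 (7 counts each), the library with the highest Itga7. The part of these genes in the result was not tested.

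Of the alpha4 and alpha9 pair, Itga9 differed strongly between the populations and Itga4 was called in no comparison. Itga9 was at 129, 128 and 154 CPM in CD51+CD140a+ MSCs and 72.7, 76.4 and 72.2 CPM in Sca-1+ MSCs. It was at 9.05, 1.77 and 24.2 CPM in Itga8+ MSCs and 0.249, 4.4 and 0.479 CPM in Itga8-Alcam+ BLCs. The first 2 populations did not overlap with each other, though their difference of 1.86-fold was not called (FDR = 0.595), and both lay above all Alcam+ libraries. Itga8-Alcam+ BLCs were 78.9-fold lower than CD51+CD140a+ MSCs (FDR = 0.00127) and 42.5-fold lower than Sca-1+ MSCs (FDR = 0.00433), and without Itga8-Alcam+ replicate 2 the log2 fold changes were -8.56 in place of -6.3 and -7.71 in place of -5.41. Itga8+ MSCs were 11.7-fold lower than CD51+CD140a+ MSCs (FDR = 0.0164) and 6.33-fold lower than Sca-1+ MSCs (FDR = 0.0726). Without Itga8+ replicate 3 these were -4.65 in place of -3.55 and -3.79 in place of -2.66 on the log2 scale. The last call was lost without Itga8+ replicate 1 or 2 or any Sca-1+ replicate (FDR = 0.111 to 0.165).

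Between the Alcam+ populations Itga9 was 6.72-fold higher in Itga8+ MSCs (FDR = 0.218), and their libraries overlapped because Itga8+ replicate 2 lay under Itga8-Alcam+ replicate 2. Without Itga8-Alcam+ replicate 2 the log2 fold change was 5.03 (FDR = 0.0254), and without Itga8+ replicate 2 it was 3.27 (FDR = 0.0574). DESeq2 also called it, at 2.79 (FDR = 0.0368).

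Itga4, best known from leukocytes, was at 20.1, 10.9 and 6.99 CPM in CD51+CD140a+ MSCs, 5.89, 6.7 and 13.9 CPM in Itga8+ MSCs, 7.41, 8.65 and 4.68 CPM in Sca-1+ MSCs and 6.32, 9.36 and 2.28 CPM in Itga8-Alcam+ BLCs. All populations overlapped. The largest fitted difference was a log2 fold change of -1.08 ± 0.56 (SE) between Itga8-Alcam+ BLCs and CD51+CD140a+ MSCs (FDR = 0.163), which was called without Itga8-Alcam+ replicate 2 (-1.55, FDR = 0.0788) and with library totals alone (-1.47, FDR = 0.0625). The summed level of 9 leukocyte markers was 2050 to 8870 CPM in Itga8+ MSCs, 3400 to 5720 CPM in Itga8-Alcam+ BLCs, 761 to 1230 CPM in Sca-1+ MSCs and 910 to 1650 CPM in CD51+CD140a+ MSCs, with Cd3e alone at the floor in each. Most of it came from the granule genes Mpo, Elane, S100a8 and S100a9. Ptprc, which encodes CD45, was at 16.7, 31.6 and 3.54 CPM in Itga8-Alcam+ BLCs, 17, 17.3 and 12.7 CPM in Itga8+ MSCs, 19.9, 7.27 and 7.45 CPM in Sca-1+ MSCs and 11.3, 6.93 and 7.41 CPM in CD51+CD140a+ MSCs. Its order over the libraries was that of Itga4 in Itga8-Alcam+ BLCs and differed from it in the other 3 populations, and its part in the levels of Itga4 was not tested. In the annotation 8.04% of the exon bases of Itga4 overlap Cerkl on the opposite strand, and without a stated strand setting reads there cannot be assigned.

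To compare the subunits with each other, levels were divided by exon length and expressed as TPM, transcripts scaled to a library total of 1000000. Itga11 had the highest TPM of the 9 in all 4 populations, at 50 ± 59.9 TPM (SD, n = 3) in Itga8+ MSCs, 38.9 ± 38.8 TPM in Itga8-Alcam+ BLCs, 255 ± 45.9 TPM in Sca-1+ MSCs and 164 ± 38.7 TPM in CD51+CD140a+ MSCs. The next subunit was Itga6 in Itga8+ MSCs (12 ± 10.6 TPM), Itga10 in Itga8-Alcam+ BLCs (10.4 ± 4.31 TPM) and Itga9 in Sca-1+ MSCs (35.7 ± 1.43 TPM) and CD51+CD140a+ MSCs (71.5 ± 6.63 TPM). Lowest was Itga7 in Itga8+ MSCs (0.144 ± 0.135 TPM) and Itga2 in Itga8-Alcam+ BLCs (0.599 ± 0.258 TPM, with Itga9 next at a mean of 0.71 TPM) and CD51+CD140a+ MSCs (0.179 ± 0.254 TPM), and in Sca-1+ MSCs Itga3 (1.37 ± 0.905 TPM).

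The order of neighbours was not firm everywhere. In Itga8-Alcam+ BLCs, Itga9 was at 0.108, 1.88 and 0.142 TPM and Itga2 at 0.443, 0.897 and 0.458 TPM, so that Itga9 was the lower in replicates 1 and 3. In the same population, Itga10 and Itga6 (7.41 ± 5.43 TPM) differed by less than their spread, and with the length of the longest transcript in place of all exons Itga6 came first (11.6 against 8.03 TPM). Itga10 was divided by all its exon bases, although 33.5% of them are shared with Gm42957. Its TPM, and the share of the collagen receptors, would be too low if reads there were left out of the counts. In CD51+CD140a+ MSCs, Itga1 stood at 60.4 ± 6.88 TPM, under Itga9, and with the longest transcript it was above Itga9 (80.3 against 61.4 TPM), because its annotated exons sum to 18599 bases and its longest transcript has 10967.

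As shares of the summed TPM of the 9 subunits, collagen receptors took 82.8% ± 2.01 (SD, n = 3) in Sca-1+ MSCs, 78% ± 2.3 in Itga8-Alcam+ BLCs and 71.7% in the other two populations (SD 2.61 for CD51+CD140a+ MSCs, SD 4.63 for Itga8+ MSCs). Laminin receptors took 17.8% ± 2.88 and 19.1% ± 1.87 in the Alcam+ populations, against 4.08% ± 0.788 in CD51+CD140a+ MSCs and 5.79% ± 1.06 in Sca-1+ MSCs, with no overlap between the former and the latter. These shares depend on the exon length used. With the length of the longest transcript, laminin receptors took 29.7% ± 1.92 in Itga8-Alcam+ BLCs and 27.9% ± 3.23 in Itga8+ MSCs. Sca-1+ MSCs had 10.5% ± 2.08 and CD51+CD140a+ MSCs 4.6% ± 1.02, again without overlap between the Alcam+ populations and the others. Collagen receptors then took 67% ± 2.57 in Itga8-Alcam+ BLCs, 61.9% ± 4.93 in Itga8+ MSCs, 72.8% ± 2.43 in CD51+CD140a+ MSCs and 78.1% ± 2.69 in Sca-1+ MSCs. By all exons, Itga8-Alcam+ BLCs (75.3% to 79.7%) lay above CD51+CD140a+ MSCs (69.3% to 74.5%). By the longest transcript they lay below, at 64.3% to 69.3% against 70.6% to 75.4%, each time without overlap. With all exons, the summed TPM of the laminin receptors did not follow their shares, at 19.1 ± 3.63 in Sca-1+ MSCs, 13.3 ± 11.5 in Itga8+ MSCs, 12.5 ± 0.73 in CD51+CD140a+ MSCs and 12.4 ± 9.79 in Itga8-Alcam+ BLCs, since the sum over all 9 subunits was 261 to 356 TPM in CD51+CD140a+ MSCs and 279 to 391 TPM in Sca-1+ MSCs. Itga4 and Itga9 together took 2.97% ± 0.589 in Itga8-Alcam+ BLCs, while Itga8+ MSCs had 10.5% ± 1.94, Sca-1+ MSCs 11.4% ± 1.31 and CD51+CD140a+ MSCs 24.2% ± 1.83. Itga8-Alcam+ BLCs ranged from 2.3% to 3.42% and Itga8+ MSCs from 8.76% to 12.6%, so that these did not overlap, although the exact permutation test of 3 against 3 cannot give less than p = 0.1. In the Alcam+ populations the sum over the 9 subunits ranged from 14 to 177 among the Itga8+ libraries and from 22.2 to 129 among those of Itga8-Alcam+ BLCs.

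**Figure D4:**
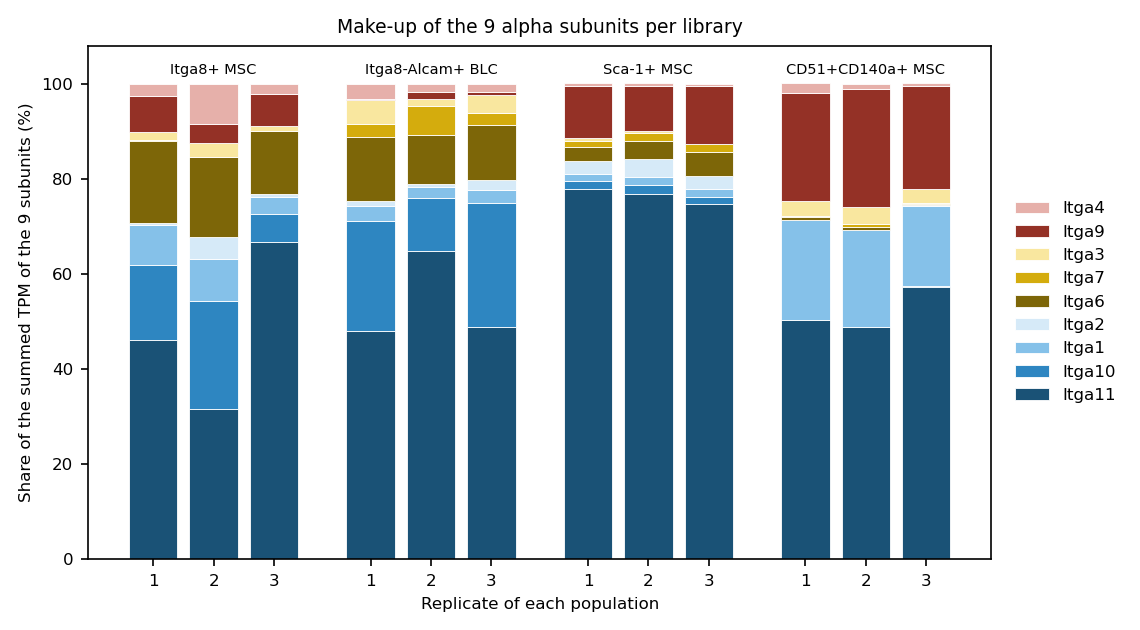
Share of each subunit in the summed TPM of the 9 (percent), as 1 stacked bar per library, with collagen receptors in blue, laminin receptors in yellow and Itga9 and Itga4 in red. Itga11 takes 31.5% to 66.6% among Itga8+ MSCs and 74.7% to 77.9% among Sca-1+ MSCs, Itga10 and Itga6 are visible in the Alcam+ populations, and Itga1 and Itga9 in CD51+CD140a+ MSCs.

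Of the beta subunits, Itgb1 was below the level of the other 6 libraries in all 6 Alcam+ libraries, without a call. Itgb1, the partner of all 9, was at 528, 335 and 981 CPM in Itga8+ MSCs, 465, 830 and 522 CPM in Itga8-Alcam+ BLCs, 1010, 1090 and 1100 CPM in Sca-1+ MSCs and 1130, 1100 and 1220 CPM in CD51+CD140a+ MSCs. It was called in none of the 6 comparisons, with fitted log2 fold changes from -0.92 to 0.02. Against CD51+CD140a+ MSCs the FDR was under the threshold for Itga8+ MSCs (-0.9, FDR = 0.0814) and Itga8-Alcam+ BLCs (-0.92, FDR = 0.0754), and the fold was not. Itgb4, the second partner of alpha6, was at 10.9, 2.44 and 9.99 CPM in Itga8+ MSCs and 5.53, 15.3 and 4.67 CPM in Itga8-Alcam+ BLCs, against 1.11, 0.915 and 2.15 CPM in Sca-1+ MSCs and 0.956, 0.315 and 0.741 CPM in CD51+CD140a+ MSCs. Itga8+ MSCs exceeded Sca-1+ MSCs (log2 fold change 2.47, FDR = 0.0315) and CD51+CD140a+ MSCs (3.52, FDR = 0.0035) in Itgb4, and Itga8-Alcam+ BLCs did so too (2.61, FDR = 0.0202, and 3.66, FDR = 0.00274). Sca-1+ MSCs thus had Itga6 at the level of the Alcam+ populations and Itgb4 below them.

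Itgb7, the second partner of alpha4 and a subunit typical of lymphocytes, was lowest in CD51+CD140a+ MSCs, with 3.06, 3.9 and 1.71 CPM. It was at 36, 16.1 and 8.03 CPM in Itga8+ MSCs, 36.3, 37.2 and 13.5 CPM in Itga8-Alcam+ BLCs and 19.4, 5.75 and 6.56 CPM in Sca-1+ MSCs. The fold change was called against CD51+CD140a+ MSCs for Itga8+ MSCs (log2 2.79, FDR = 0.00895), Itga8-Alcam+ BLCs (3.32, FDR = 0.00355) and Sca-1+ MSCs (1.87, FDR = 0.0731). Itga4 was not called in the same comparisons.

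The other 9 integrin alpha subunits, which bind RGD or pair with beta2 or beta7, give the setting. Itga8, the RGD receptor used for sorting, was at 73.5, 35.1 and 199 CPM in Itga8+ MSCs, 0.398, 4.17 and 0.659 CPM in Itga8-Alcam+ BLCs, 2.88, 2.08 and 1.87 CPM in Sca-1+ MSCs and 57, 82.9 and 53.1 CPM in CD51+CD140a+ MSCs, so that it followed the sort among the bone-derived populations, and CD51+CD140a+ MSCs, which were not sorted on it, overlapped with Itga8+ MSCs. Itgav, which encodes CD51, was called in no comparison, with 195, 121 and 177 CPM in CD51+CD140a+ MSCs and 126, 150 and 126 CPM in Sca-1+ MSCs. Itga5, the fibronectin receptor, was higher in Sca-1+ MSCs (646, 714 and 578 CPM) than in CD51+CD140a+ MSCs (87.5, 75.4 and 91.5 CPM), with a log2 fold change of 2.93 (FDR = 0.0302). Ly6a, which encodes Sca-1, was at 611 to 659 CPM in Sca-1+ MSCs and at most 35.7 CPM elsewhere.

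The leukocyte-type subunits were low. Itgam was above Sca-1+ MSCs (2.55, FDR = 0.0303) and CD51+CD140a+ MSCs (2.51, FDR = 0.0227) in Itga8-Alcam+ BLCs, whose libraries had 4.73, 11.2 and 1.14 CPM and overlapped with both. Itgad reached 0.594, 0.986 and 0.462 CPM in Itga8+ MSCs and was at 0 in all libraries of CD51+CD140a+ MSCs and Sca-1+ MSCs, and both differences were called (FDR = 0.0114 and 0.0294). Itgal, Itgae, Itgax and the platelet subunit Itga2b were called in no comparison, with mean levels of 4.34 to 10.7, 0.0298 to 0.324, 0.14 to 0.608 and 12 to 21.9 CPM over the populations.

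**Figure D5:**
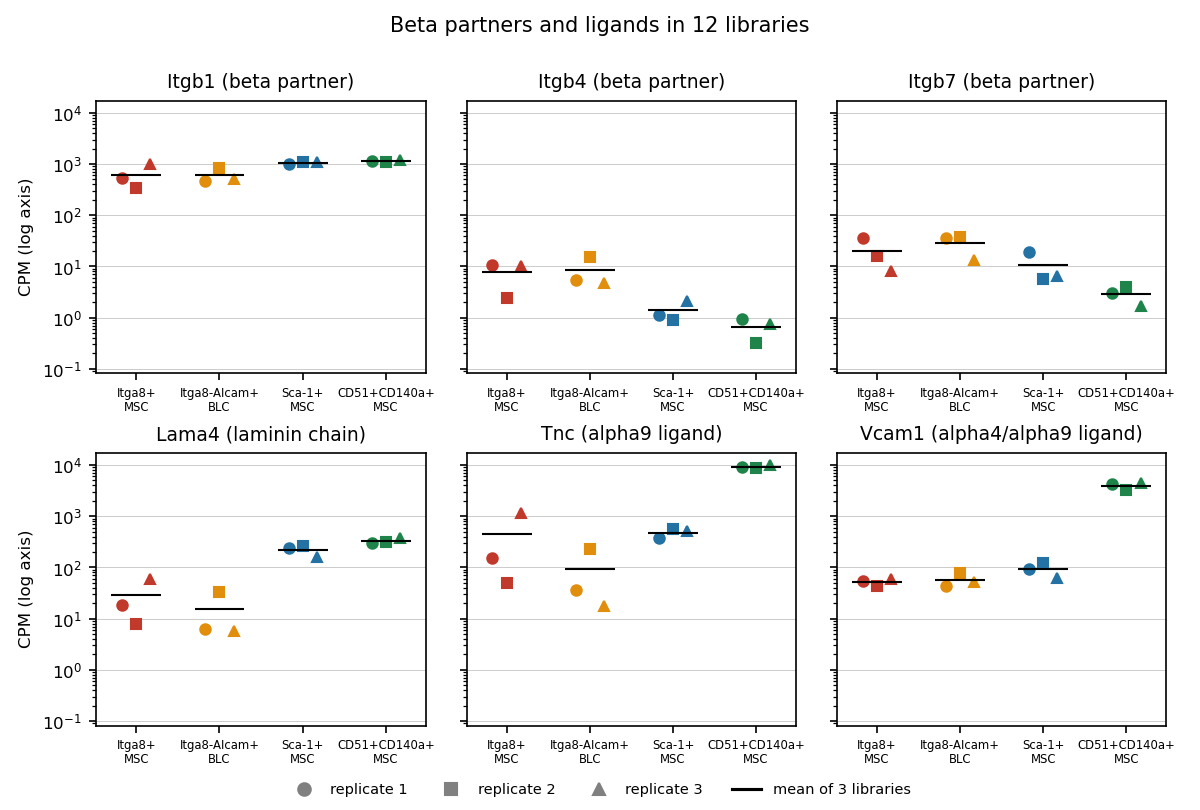
Levels of the beta partners Itgb1, Itgb4 and Itgb7 and of the ligand genes Lama4, Tnc and Vcam1 in CPM on a log axis, with 3 libraries per population (circle, square and triangle for replicates 1, 2 and 3) and a bar at their mean. Itgb4 and Itgb7 are lowest in CD51+CD140a+ MSCs, where Tnc (8820 to 9900 CPM) and Vcam1 (3200 to 4380 CPM) are highest.

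The genes of the ligands differed between the same populations. The counts for this and the following lists stand beside the shares of all genes called in each direction. Relative to CD51+CD140a+ MSCs, Sca-1+ MSCs had 11.2% of all genes higher and 9.3% lower, Itga8-Alcam+ BLCs 20.4% and 14.9%, and Itga8+ MSCs 21.2% and 14.3%. Relative to Sca-1+ MSCs, Itga8-Alcam+ BLCs had 14.5% higher and 11.9% lower, and Itga8+ MSCs 12.9% and 8.89%. Between the Alcam+ populations 1.66% were higher in Itga8+ MSCs and 2.16% lower. Of 13 collagen chains bound by the collagen receptors, 3 were called between Itga8+ MSCs and Itga8-Alcam+ BLCs, all higher in the latter, among them Col1a1 (log2 fold change -3.9, FDR = 0.0592) and Col1a2 (-3.99, FDR = 0.0153), the chains of collagen I. The median over the list was 0.75 in the other direction, against 0.08 for all genes. Between Itga8+ MSCs and Sca-1+ MSCs 3 were higher in the former and 4 in the latter. Col2a1, the cartilage collagen that alpha10 binds, was at 60200, 7590 and 105000 CPM in Itga8+ MSCs and 1250, 972 and 1240 CPM in Sca-1+ MSCs (log2 fold change 5.65, FDR = 0.00388). Col3a1, a fibrillar collagen of soft tissue, was at 1100, 293 and 5030 CPM and 44400, 50200 and 41300 CPM in the same populations (-4.4, FDR = 0.0104). Between Itga8+ MSCs and CD51+CD140a+ MSCs 5 were higher in the former and none in the latter. Of the same 13 chains, Itga8-Alcam+ BLCs had 4 higher and 6 lower than Sca-1+ MSCs and 6 higher and 2 lower than CD51+CD140a+ MSCs, and Sca-1+ MSCs had 7 higher and none lower than CD51+CD140a+ MSCs. The chains of collagen IV, the ligand that alpha1 prefers, had their highest means in CD51+CD140a+ MSCs, as Itga1 did. Col4a1 was at 1270, 706 and 1380 CPM there and at 523, 551 and 300 CPM in Sca-1+ MSCs, without overlap and without a call (log2 fold change of Sca-1+ minus CD51+CD140a+ MSCs -1.29, FDR = 0.448). It was called against Itga8-Alcam+ BLCs (-4.72, FDR = 0.00723) and not against Itga8+ MSCs (-2.12, FDR = 0.122), and Col4a2 likewise (-3.63, FDR = 0.0154, and -1.27, FDR = 0.293).

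Of 11 laminin chains, none was called between Itga8+ MSCs and Itga8-Alcam+ BLCs, where the same edgeR test called Itga7. Sca-1+ MSCs had 2 chains higher than Itga8+ MSCs and 4 higher than Itga8-Alcam+ BLCs, and none lower than either. CD51+CD140a+ MSCs had 4 higher and 3 lower than Itga8+ MSCs, 6 higher and 3 lower than Itga8-Alcam+ BLCs, and 1 higher and 3 lower than Sca-1+ MSCs. Lamb1, a beta chain of many laminins, was at 697, 616 and 805 CPM in CD51+CD140a+ MSCs and 5.09, 1.82 and 35.6 CPM in Itga8+ MSCs (log2 fold change of Itga8+ minus CD51+CD140a+ MSCs -5.64, FDR = 0.00232). Lama4, the alpha chain of mesenchymal and endothelial laminin, was at 305, 315 and 381 CPM and 18.3, 7.84 and 58.9 CPM in the same populations (-3.56, FDR = 0.00605). Lamc1, the common gamma chain, was also lower in Itga8+ MSCs (-2.17, FDR = 0.0701). Lamb2 was called in no comparison. The median log2 fold change over the laminin chains was 0.79 for Itga8+ MSCs minus Itga8-Alcam+ BLCs (all genes 0.08), -1.03 minus Sca-1+ MSCs (0.16) and -1.26 minus CD51+CD140a+ MSCs (0.18).

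Of 10 ligand genes of alpha4 and alpha9, 6 were higher in CD51+CD140a+ MSCs than in Itga8+ MSCs and 1 was lower, with a median log2 fold change of -3 (all genes 0.18), and the counts were again 6 and 1 against Itga8-Alcam+ BLCs and 4 and 2 against Sca-1+ MSCs. Vcam1 was at 4260, 3200 and 4380 CPM in CD51+CD140a+ MSCs against 53.8, 43 and 58.7 CPM in Itga8+ MSCs (-6.25, FDR = 1.22e-06). Tnc, which encodes tenascin-C, was at 8980, 8820 and 9900 CPM against 154, 50.8 and 1170 CPM (-4.33, FDR = 0.0141). Fn1, which encodes fibronectin, was the gene lower in CD51+CD140a+ MSCs, at 68, 40.5 and 27.7 CPM against 1840, 1240 and 13400 CPM (6.92, FDR = 0.00103). Spp1, which encodes osteopontin, was called in no comparison. Between the Alcam+ populations 2 of the 10 were called, both higher in Itga8+ MSCs. Itga8+ MSCs had 1 gene higher and 3 lower than Sca-1+ MSCs, and Itga8-Alcam+ BLCs 2 higher and 4 lower. CD51+CD140a+ MSCs are set apart by their LepR+ stromal markers too, with summed levels over 6 genes of 44700 to 61200 CPM against 201 to 739 CPM in the other 9 libraries, none of them at the floor.

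Inside the cell, integrins are joined to actin by adaptors. Of 25 adaptor genes tested (26 listed), 1 was called between the Alcam+ populations, higher in Itga8+ MSCs. Itga8+ MSCs had 2 higher and 4 lower than Sca-1+ MSCs and 2 higher and 9 lower than CD51+CD140a+ MSCs. Itga8-Alcam+ BLCs had 2 higher and 5 lower, and 3 higher and 10 lower, and Sca-1+ MSCs 1 higher and 4 lower than CD51+CD140a+ MSCs. Fermt2, the kindlin that activates integrins in mesenchymal cells, was at 78.2, 63.8 and 88.9 CPM in Itga8+ MSCs, 78.3, 81.4 and 84.3 CPM in Itga8-Alcam+ BLCs, 228, 256 and 244 CPM in Sca-1+ MSCs and 265, 341 and 333 CPM in CD51+CD140a+ MSCs. The Alcam+ libraries lay below the other 6, and all 4 differences across that line were called (FDR = 7.77e-05 to 0.000807). Flna, an actin crosslinker, was lower in Itga8+ MSCs (-2.26, FDR = 0.0992) and Itga8-Alcam+ BLCs (-2.61, FDR = 0.065) than in CD51+CD140a+ MSCs. Ilk and Actn4 were called in no comparison. The median over the adaptors was 0.02 for Itga8+ MSCs minus Itga8-Alcam+ BLCs, -0.29 minus Sca-1+ MSCs and -0.73 minus CD51+CD140a+ MSCs, beside the same all-gene medians of 0.08, 0.16 and 0.18.

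Of 5 genes whose products hold integrins inactive or turn them over, none was called in 3 of the comparisons and 1 in each of the others. Slk was higher in Sca-1+ MSCs than in Itga8+ MSCs (-1.38, FDR = 0.00468) and Itga8-Alcam+ BLCs (-1.27, FDR = 0.00565), and Dok1 was lower in CD51+CD140a+ MSCs than in Itga8+ MSCs (1.17, FDR = 0.0913), with overlapping libraries. Nisch and Itgb1bp1 were called in none. Among 8 matrix receptors that are not integrins, none was called between the Alcam+ populations. Itga8+ MSCs had 1 higher and 2 lower than Sca-1+ MSCs and 2 higher and 4 lower than CD51+CD140a+ MSCs, Itga8-Alcam+ BLCs 1 and 1, and 2 and 3. Compared with CD51+CD140a+ MSCs, Sca-1+ MSCs had 1 higher and 3 lower. Ddr2, a receptor tyrosine kinase for fibrillar collagen, was at 510, 582 and 436 CPM in Sca-1+ MSCs and 83.8, 87.1 and 252 CPM in Itga8+ MSCs (-1.85, FDR = 0.0204). Sdc4, a heparan sulphate proteoglycan of adhesions, was lower in Sca-1+ MSCs than in Itga8+ MSCs (1.4, FDR = 0.0145), and the proteoglycan Sdc1 and the laminin receptor Dag1 were higher in CD51+CD140a+ MSCs than in Itga8+ MSCs (-2.92, FDR = 0.000154, and -1.94, FDR = 0.0724).

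Tetraspanins bind laminin receptors sideways in the membrane. Of 5, none was called between the Alcam+ populations. Cd9 was at 266, 287 and 250 CPM in CD51+CD140a+ MSCs, against 1060, 2630 and 965 CPM in Itga8+ MSCs (2.54, FDR = 0.00128). It was at 1200, 758 and 1990 CPM in Itga8-Alcam+ BLCs (2.3, FDR = 0.00217) and 1520, 1480 and 1960 CPM in Sca-1+ MSCs (2.63, FDR = 0.00127). Itga8+ MSCs exceeded Sca-1+ MSCs (1.81, FDR = 0.00353) and CD51+CD140a+ MSCs (1.97, FDR = 0.000991) in Cd82. Against Sca-1+ MSCs, 1 tetraspanin was higher and 1 lower in Itga8+ MSCs, and 2 and 2 in Itga8-Alcam+ BLCs. Against CD51+CD140a+ MSCs, the counts were 2 and 1 for Itga8+ MSCs, 3 and 1 for Itga8-Alcam+ BLCs and 1 and 0 for Sca-1+ MSCs. Cd63 (1.89, FDR = 0.0357) was higher and Cd81 (-1.14, FDR = 0.0614) lower in Itga8-Alcam+ BLCs than in Sca-1+ MSCs.

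Over the 12 libraries the subunits split by sign, as a description that 4 populations and their depth largely fix. The strongest negative Pearson's r of log2(CPM + 0.5) was between Itga1 and Itga10 (-0.893), and the strongest positive were between Itga6 and Itga10 (0.851), Itga9 and Itga11 (0.845), Itga1 and Itga9 (0.835) and Itga1 and Itga3 (0.802). For each subunit, the 3 genes of highest r among 10561 genes with a mean of at least 10 CPM in at least 1 population were named. For Itga1 these were Ism1 (0.994), Adgrf5 (0.99) and Bmp6 (0.99), for Itga2 Ntn1 (0.985), Tmem198b (0.976) and Crybg3 (0.974), for Itga10 Mall (0.994), Fam20c (0.986) and Ezr (0.981), and for Itga11 Smurf1 (0.988), Lrch3 (0.984) and Brip1os (0.984). For Itga3 they were Unc13b (0.976), Epb41l5 (0.965) and Plpp6 (0.957), and for Itga6 Nfatc2 (0.966), Endod1 (0.964) and Map2 (0.964). For Itga9 they were Olfml2a (0.985), Lama4 (0.98) and Arhgap6 (0.979). Itga7 and Itga4 had no gene above 0.893, with Scn7a (0.893), Kcnt2 (0.893) and Smad3 (0.891) nearest to Itga7 and Rfc1 (0.878), Wdhd1 (0.874) and Tut4 (0.849) nearest to Itga4.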

How the data were processed

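RNA of 12 libraries (4 sorted populations, 3 each) was amplified as cDNA with a SMART-Seq kit and sequenced from Nextera XT libraries. The deposited values were whole-number counts of reads per Ensembl gene, which the authors did not normalise before deposit. The study's methods name TopHat and Bowtie2 on mm10, and the submitters' processing notes name FastQC 0.11.7, Trimmomatic 0.38, HISAT2 2.1.0, SAMtools 1.9 and featureCounts 1.6.3. Which aligner made these counts and whether counting used strand was not given in the sources used here, and amplified copies count as separate reads.

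All 12 libraries were fitted in 1 quasi-likelihood model (edgeR 4.0.16, R 4.3.3, TMM) over 18648 genes that reached 0.5 CPM in 1 library or more, and 6 pairwise contrasts were tested with two-sided tests and Benjamini-Hochberg adjustment over all genes. The thresholds (FDR under 0.1, fold above 2) followed the study. Single values were also compared with exact permutation tests. CPM and TPM were computed from these counts, and TPM used the union of exons in GENCODE M21 (GRCm38), which lists 49326 of the 49585 genes. The genes without an entry held at most 0.0163% of a library's counts.

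All 9 subunits were named, with all beta partners and other alpha subunits, at most 4 genes of highest mean TPM from each other list, and the 3 genes most like each subunit. Col4a1, Col4a2, Cerkl, Gm42957 and single marker genes were named after their values were seen. Genes, lists and tests were chosen with earlier results of these data known. Replicate numbers were not taken to pair the libraries. No library was a copy of another (chi-square per gene 19.6 to 592 between replicates). The alternatives were DESeq2 1.42.0, RLE size factors, library totals, other filters, smaller fits, a block, FDR under 0.05 and each library left out. Among single genes, they were read for the 9 subunits only. Removal of the length trend, by a smooth per library used as an offset, omission of both libraries poor in long transcripts and class shares by the longest transcript were chosen after seeing the data. The study's further experiments were not used here. The result of 1 of the 13 marker lists is not reported here.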

Additional observations from a re-analysis of the deposited data

How the results depend on the processing

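Of the 6 counts of subunits called, those between Itga8+ MSCs and CD51+CD140a+ MSCs (5 to 7 over all alternatives) and between CD51+CD140a+ MSCs and Sca-1+ MSCs (5 to 6) stayed within 1.5 times the reported value. Between Itga8+ MSCs and Itga8-Alcam+ BLCs the count of 1 became 2 with DESeq2, with the length trend removed and without both libraries poor in long transcripts. It became 0 at an FDR under 0.05 and when only the compared libraries were fitted, where Itga7 kept its direction (log2 fold change -4.69). Between Itga8+ MSCs and Sca-1+ MSCs 2 in place of 4 were called at an FDR under 0.05. Between Itga8-Alcam+ BLCs and Sca-1+ MSCs 3 in place of 5 were, and against CD51+CD140a+ MSCs DESeq2 called 8 in place of 5. With single libraries left out, the counts ran from 0 to 3 (Itga8+ MSCs and Itga8-Alcam+ BLCs), 2 to 4 (Itga8+ and Sca-1+ MSCs), 5 to 7 (Itga8+ and CD51+CD140a+ MSCs), 2 to 5 (Itga8-Alcam+ BLCs and Sca-1+ MSCs), 5 to 8 (Itga8-Alcam+ BLCs and CD51+CD140a+ MSCs) and 5 to 6 (Sca-1+ and CD51+CD140a+ MSCs). Leaving out a library leaves fewer samples for the fit, and otherwise the cause was not tested.

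With the replicate number as a block, 0 subunits were called between Itga8+ MSCs and Itga8-Alcam+ BLCs and 2 between Itga8+ MSCs and Sca-1+ MSCs. The calls of Itga7 in Itga8+ MSCs against CD51+CD140a+ MSCs (-2.17) and Itga8-Alcam+ BLCs (-3.98), of Itga9 (-2.69) and Itga11 (-2.57) against Sca-1+ MSCs and of Itga10 between Itga8-Alcam+ BLCs and Sca-1+ MSCs (1.18) were lost. Over all genes the block moved the calls between the Alcam+ populations from 712 to 433, and those between Itga8+ MSCs and Sca-1+ MSCs from 4055 to 2878. The labels do not say that a number marks a shared animal or day, so the numbers were not taken to pair the libraries. The deviations of same-numbered libraries correlated from -0.701 to 0.303 (5 of 18 pairs over 0.1), and those of other pairs from -0.422 to 0.742. Such correlations cannot decide whether animals or days were shared, because any difference between libraries, such as in long transcripts, enters them too.

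Reversed signs occurred only for differences that were called in no case. With the block these were Itga11 (-0.06) and Itga2 (-0.16) between the Alcam+ populations. With the length trend removed they were Itga1 (0.51) and Itga6 (0.25) between Itga8+ and Sca-1+ MSCs, Itga4 between Itga8+ and CD51+CD140a+ MSCs (0.14) and Itga4 between Itga8-Alcam+ BLCs and Sca-1+ MSCs (0.46). Without both libraries poor in long transcripts they were Itga1 (0.1), Itga3 (0.08) and Itga6 (0.39) between Itga8+ and Sca-1+ MSCs, Itga2 between the Alcam+ populations (-0.19), and Itga4 (0.19) and Itga7 (0.05) between Itga8-Alcam+ BLCs and Sca-1+ MSCs. With single libraries left out, the log2 fold change between the Alcam+ populations ran from -1.44 to 1.24 for Itga11, -0.34 to 0.45 for Itga2 and -0.36 to 1.14 for Itga6. Between Itga8+ and Sca-1+ MSCs it ran from -0.69 to 0.06 for Itga1, -0.88 to 0.21 for Itga3, -0.18 to 0.57 for Itga4 and -0.95 to 0.35 for Itga6, and between Itga8-Alcam+ BLCs and Sca-1+ MSCs from -0.72 to 0.18 for Itga4 and -2.07 to 0.05 for Itga7.

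Library totals in place of TMM shifted the all-gene median (log2) by 0.26 (Itga8+ MSCs minus Itga8-Alcam+ BLCs), -0.18 (Itga8-Alcam+ BLCs minus Sca-1+ MSCs), -0.33 (minus CD51+CD140a+ MSCs) and -0.14 (Sca-1+ minus CD51+CD140a+ MSCs). The share of calls higher in the first population then moved from 43.5% to 61.3%, from 54.9% to 42.6%, from 57.9% to 41.8% and from 54.7% to 48.4%.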
